A study of Mus musculus with 4 samples.

Results

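The Notch ligands, effectors and targets described here are 10 genes, taken by symbol from the 21025 gene rows that each library's file held: the receptor genes Notch1 and Notch2, the ligand genes Dll1 and Jag1, the gamma-secretase gene Psen2, the DNA-binding factor gene Rbpj, the adaptor gene Numbl, and Dtx1, Nrarp and Hes1, which Notch signalling induces. All 10 were found. They were chosen with their difference between the sorted subsets known, so that difference is given below as a description with no test.

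The 4 libraries hold polyA RNA of natural killer (NK) cells from the liver of C57BL/6 mice. TRAIL+ cells (2 libraries) were sorted as carrying the death ligand TRAIL and lacking CD49b, and CD49b+ cells (2 libraries) as carrying the integrin chain CD49b and lacking TRAIL. Cells of both subsets lacked the T-cell receptor beta chain and carried NK1.1 and NKp46, and no treatment or engineered allele is named in the labels. By its title, the study asked how NK cell development depends on the transcription factor Nfil3. No age or sex is stated for the mice, nor whether replicates came from separate or pooled animals. The p-values therefore weigh the difference between the subsets against the spread between libraries of the same subset, part of which may be technical. The fit pools that spread over both subsets and draws it toward the spread of other genes of like abundance.

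Notch receptors are cell-surface proteins that are cut when a Delta or Jagged ligand on a neighbouring cell binds them. An ADAM protease makes the outer cut and gamma-secretase, whose catalytic subunit is presenilin, the cut within the membrane, which frees the intracellular domain. In the nucleus this domain joins RBPJ and Mastermind and turns on genes such as Hes1, Nrarp and Dtx1, whereas RBPJ without it sits with corepressors. The pathway is known for directing lymphoid progenitors to the T-cell fate.

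Expression is given in RPKM, a unit that divides reads by the gene's length and the library's total, which allows levels of different genes to be compared. The reads behind each library, worked out from the steps in which low RPKM values move, were 4071617 and 3786497 in the TRAIL+ libraries and 4232967 and 3933014 in the CD49b+ libraries. The sort genes followed the labels: Tnfsf10, which encodes TRAIL, stood at 208 and 189 RPKM in TRAIL+ cells and 7.26 and 6.94 RPKM in CD49b+ cells, and Itga2, which encodes CD49b, at 5.26 and 1.55 RPKM in TRAIL+ cells and 52.1 and 37.0 RPKM in CD49b+ cells. The NK genes Ncr1 and Klrb1c stood at 901 to 1253 RPKM in every library. Of 8 NK markers listed, 8 were tested, and 0 were higher and 1 lower in TRAIL+ cells by limma. These counts stand beside 4.76% and 3.86% of all genes tested. The lower marker was Prf1, named after its values were seen. It stood at 331 and 308 RPKM in TRAIL+ cells and 1872 and 1802 RPKM in CD49b+ cells (limma adjusted p = 0.00235). In bulk RNA, fewer cells that express a gene and less RNA per cell cannot be told apart.

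The promoters of 3 members are shown, as those of the DNA-binding factor and of the members with the largest positive and negative differences. Each runs from 250 bases before to 50 after a RefSeq start site (GRCm38.p6), and capitals mark the core of the RBPJ motif, TGGGAA, on either strand. Rbpj is shown at chr5:53590096-53590395 on the plus strand, Dll1 at chr17:15375774-15376073 on the minus strand and Nrarp at chr2:25180508-25180807 on the plus strand.
Rbpj: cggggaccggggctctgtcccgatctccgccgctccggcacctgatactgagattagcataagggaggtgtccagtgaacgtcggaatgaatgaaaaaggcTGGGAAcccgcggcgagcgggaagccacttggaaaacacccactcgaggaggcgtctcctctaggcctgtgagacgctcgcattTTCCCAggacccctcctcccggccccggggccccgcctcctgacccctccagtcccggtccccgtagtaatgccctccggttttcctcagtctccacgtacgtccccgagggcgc
Dll1: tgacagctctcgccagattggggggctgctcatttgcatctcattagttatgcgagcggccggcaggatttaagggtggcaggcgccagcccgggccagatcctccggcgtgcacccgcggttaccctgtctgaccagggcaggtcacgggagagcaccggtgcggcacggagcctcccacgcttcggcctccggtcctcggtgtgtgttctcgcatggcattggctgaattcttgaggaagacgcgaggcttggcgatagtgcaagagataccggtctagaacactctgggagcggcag
Nrarp: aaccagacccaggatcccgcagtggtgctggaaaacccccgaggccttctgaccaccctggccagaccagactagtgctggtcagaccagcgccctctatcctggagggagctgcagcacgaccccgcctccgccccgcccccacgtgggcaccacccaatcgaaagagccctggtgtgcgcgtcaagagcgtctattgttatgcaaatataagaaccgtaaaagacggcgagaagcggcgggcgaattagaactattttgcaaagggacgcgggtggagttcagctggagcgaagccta

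The Rbpj window held the RBPJ core 149 bases before the start site on the gene's strand, and 65 bases before it on the other strand (first base of the match, reading the gene's strand). The Dll1 and Nrarp windows shown held none of these letters. Of the 9 members with a window in the RefSeq table, 2 (Rbpj and Psen2) had the core in at least 1 of their windows, and 3 of 12 windows (25%) did, against 25.6% of 32851 windows of this length over all genes. Both Rbpj windows are among the 3, and they overlap and share 1 match. HES proteins are known to bind the N box, CACNAG, and the class C site, CACGCG. Of the 12 windows, 7 held the N box and 4 the class C site, on either strand, against 42.5% and 9.27% of all windows. The 4 windows with the class C site, which itself holds CpG pairs (C followed by G), held 15 to 41 of these pairs. The median over all windows was 7. Windows of like composition were not compared, so no excess is read from these shares. No matches of different motifs overlapped in the members' windows. A match of letters is not a binding site, and the files measure no binding.

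The members' directions cut across their roles. Both ligand genes, Rbpj, Dtx1, Numbl and Psen2 stood higher in both TRAIL+ libraries than in both CD49b+ libraries. Nrarp and Hes1 stood lower in both TRAIL+ libraries, and Notch1 and Notch2 overlapped. The groups were therefore apart for 8 of 10 members, 6 higher and 2 lower, beside 46.8% of the 10047 genes tested (24.9% higher and 21.8% lower). The members were chosen on this contrast, so nothing is read from that count. The median difference in log2(RPKM + 1), TRAIL+ minus CD49b+, was 1.14 over the members and 0.00499 over all genes tested. All 10 passed the minimum of 1 RPKM in 2 of 4 libraries, Dll1 and Jag1 through the TRAIL+ libraries alone.

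**Figure D1:**
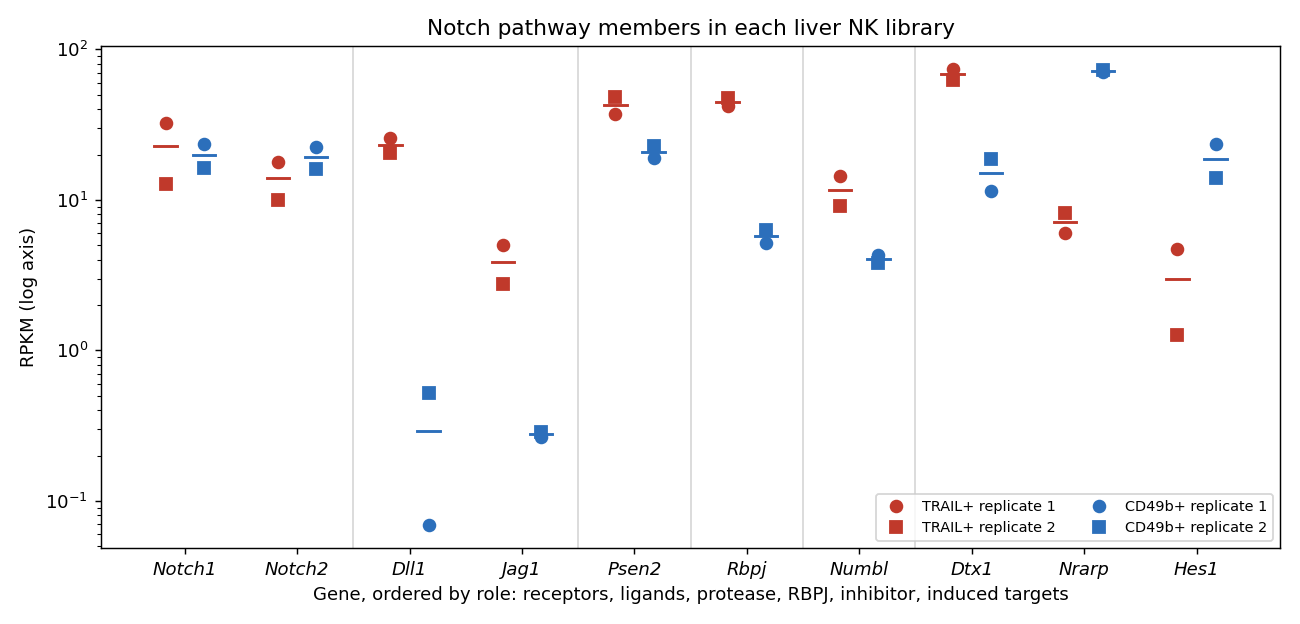
RPKM of each member (log axis) in the TRAIL+ libraries (red, left of each pair) and the CD49b+ libraries (blue, right), with circles for replicate 1, squares for replicate 2 and lines at group means. The ligands Dll1 and Jag1 lie under 1 RPKM in both CD49b+ libraries, and Nrarp and Hes1 are the members whose red points lie under their blue points.

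Receptor genes were expressed in both subsets. Notch1 stood at 32.5 and 12.7 RPKM in TRAIL+ cells and 23.3 and 16.2 RPKM in CD49b+ cells. The TRAIL+ libraries spanned the CD49b+ ones, and the difference was 0.07 ± 0.45 on the log2(RPKM + 1) scale (limma's moderated SE, n = 2 per group). Here and below, ± gives this SE, in which a gene's variance is drawn toward that of genes of like abundance. It is not the spread of that gene's replicates alone. The direction of the Notch1 difference turned with the library left out, at -0.58 without TRAIL+ replicate 1 and -0.18 without CD49b+ replicate 2. Notch2 stood at 17.9 and 9.97 RPKM in TRAIL+ cells and 22.5 and 16.1 RPKM in CD49b+ cells, and these ranges overlapped too (-0.48 ± 0.32). Notch1 was at or above Notch2 in every library: the ratio of Notch1 to Notch2 within a library was 1.82 and 1.27 in TRAIL+ cells and 1.04 and 1.01 in CD49b+ cells. The other receptor genes were nearly absent, with Notch3 at 1 and 0 reads in the TRAIL+ libraries and 0 and 1 read in the CD49b+ libraries, and Notch4 at 4 and 4 reads against 1 and 3 reads.

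The receptor genes are the longest members, and longer genes read higher in replicate 1 of both subsets. Over the 390 tested genes of 8000 to 12000 bases, the median difference of replicate 1 minus replicate 2 was 0.58 in the TRAIL+ libraries and 0.23 in the CD49b+ libraries, in log2(RPKM + 1). Notch1 differed by 1.29 and 0.50 in the TRAIL+ and CD49b+ libraries, and Notch2 by 0.78 and 0.46. For 2797 genes of 500 to 2000 bases the medians were -0.33 and -0.14. Hes1, of 1455 bases, went the other way from its length class, by 1.34 and 0.71. The part of length in the spread of single members was not tested. With a trend on length removed from each library, a step chosen after seeing the data, the difference was 0.18 for Notch1 and -0.35 for Notch2.

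**Figure D2:**
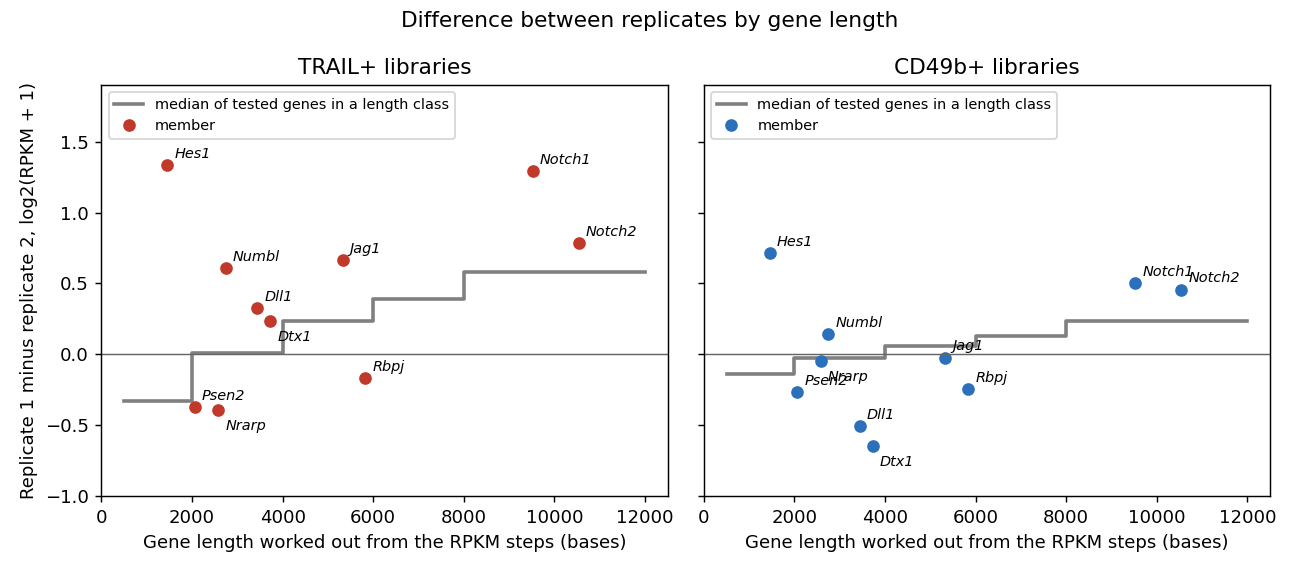
Replicate 1 minus replicate 2 in log2(RPKM + 1), against gene length in bases, for the members (points) in the TRAIL+ libraries (left) and the CD49b+ libraries (right), with the median of all tested genes in each length class as a grey line. The grey line climbs to 0.58 in TRAIL+ cells and 0.23 in CD49b+ cells in the longest class, where Notch1 and Notch2 lie above it.

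The ligand genes Dll1 and Jag1 stood under 1 RPKM in both CD49b+ libraries. Dll1, which encodes a Delta-type ligand, stood at 25.9 and 20.5 RPKM in TRAIL+ cells, on 363 and 267 reads, and at 0.0687 and 0.518 RPKM in CD49b+ cells, on 1 and 7 reads. Both TRAIL+ libraries were far above both CD49b+ libraries, by 39.6 to 377 times over the library pairs. The ratio of group means was 79.2, and the ratio of reads per total 81.8, with an exact binomial 95% interval of 41.3 to 190 that covers counting error only. The fold rests on few CD49b+ reads and was 44.9 without CD49b+ replicate 1 and 338 without CD49b+ replicate 2. In TRAIL+ cells Dll1 lay at the 65.6th percentile of tested genes, about level with Notch1 at 64.9.

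Jag1, which encodes a Jagged-type ligand, stood at 4.98 and 2.78 RPKM in TRAIL+ cells, on 108 and 56 reads, and at 0.266 and 0.287 RPKM in CD49b+ cells, on 6 and 6 reads. The groups did not overlap, and the ratio of means was 14.0 (ratio of reads 14.2, exact 95% interval 7.91 to 28.1). Within TRAIL+ libraries Dll1 was 5.20 and 7.38 times Jag1 and made up 83.2% and 87.3% of the RPKM summed over Dll1, Jag1, Dll3, Dll4 and Jag2. That sum was 31.2 and 23.5 RPKM in TRAIL+ cells and 0.335 and 0.804 RPKM in CD49b+ cells. Of the other ligands, Dll3 and Dll4 were listed at 0 in all libraries, and Jag2 had 4 and 3 reads in the TRAIL+ libraries against 0 in both CD49b+ libraries. The less usual ligand genes were also scarce and did not share this direction. Dlk1 had 0 reads in both TRAIL+ libraries against 10 and 2 in the CD49b+ libraries, where it stood at 1.44 and 0.31 RPKM. Dlk2 had 3 and 2 reads against 4 and 2, and Dner 0 and 0 reads against 0 and 2.

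Endothelial cells and bile duct cells of the liver are known to express Notch ligands. Of 9 endothelial markers, 5 (Lyve1, Clec4g, Tek, Ptprb and Emcn) were at 0 in every library, and the list summed to 0.438 and 0.0644 RPKM in TRAIL+ cells and 0.161 and 0.248 RPKM in CD49b+ cells. Of 5 bile duct markers, Krt19, Krt7 and Sox9 were at 0 in every library. The list summed to 18.2 and 19.4 RPKM in TRAIL+ cells and 5.84 and 6.04 RPKM in CD49b+ cells, with Epcam higher and Spp1 lower in TRAIL+ cells (limma adjusted p = 0.000686 and 0.00914). Epcam met the minimum through the TRAIL+ libraries alone. Stellate cell markers summed to at most 0.327 RPKM, with Reln and Dcn at 0, and those of type 2 and 3 innate lymphoid cells to at most 0.26 RPKM, with Il22 and Il23r at 0.

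The protease and adaptor members differed less. Psen2, a catalytic subunit of gamma-secretase, stood at 37.2 and 48.3 RPKM in TRAIL+ cells and 18.9 and 22.9 RPKM in CD49b+ cells. The groups were apart and the ratio of means was 2.04, a difference of 0.99 ± 0.21 on the log2(RPKM + 1) scale. Numbl, a relative of the Notch inhibitor Numb, stood at 14.3 and 9.05 RPKM in TRAIL+ cells and 4.31 and 3.80 RPKM in CD49b+ cells, a ratio of 2.88 (1.30 ± 0.27). Numb itself, named after its values were seen, was level at 13.7 and 9.91 RPKM in TRAIL+ cells and 13.1 and 11.7 RPKM in CD49b+ cells, with a difference of -0.08 ± 0.22 that did not pass the test (limma adjusted p = 0.91).

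Rbpj, which encodes the factor that carries Notch signals to DNA, stood at 42.3 and 47.5 RPKM in TRAIL+ cells and 5.19 and 6.32 RPKM in CD49b+ cells. The replicates lay close together and the groups were far apart, by 6.68 to 9.15 times over the library pairs. The ratio of means was 7.80 and the difference 2.77 ± 0.19 on the log2(RPKM + 1) scale, with a range of 2.64 to 2.89 when any 1 library was left out. RefSeq lists 3 Rbpj pseudogenes, of which 0 have a row of their own, so reads shared with them cannot be told apart. Relative to the receptor, Rbpj was 1.30 and 3.74 times Notch1 in TRAIL+ libraries and 0.222 and 0.39 times Notch1 in CD49b+ libraries.

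The induced targets did not move together. Dtx1, which encodes a Deltex ubiquitin ligase that acts on Notch, was the most abundant member in TRAIL+ cells at 74.2 and 62.9 RPKM, and stood at 11.5 and 18.6 RPKM in CD49b+ cells. The groups were apart, with a ratio of means of 4.56 and a difference of 2.15 ± 0.26. Nrarp, which encodes a small ankyrin-repeat inhibitor of Notch signalling, was the most abundant member in CD49b+ cells, at 6.01 and 8.20 RPKM in TRAIL+ cells and 70.4 and 72.8 RPKM in CD49b+ cells. It was 10.1-fold lower in TRAIL+ cells by group means, on 63 and 80 reads against 768 and 738 reads, a difference of -3.18 ± 0.20.

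Hes1, a bHLH repressor, stood at 4.73 and 1.27 RPKM in TRAIL+ cells and 23.5 and 14.0 RPKM in CD49b+ cells. Both TRAIL+ libraries were below both CD49b+ libraries, but the TRAIL+ values rest on 28 and 7 reads and differed from each other more than those of Nrarp. It was 6.26-fold lower in TRAIL+ cells by group means, and 14.8-fold without TRAIL+ replicate 1 and 3.97-fold without TRAIL+ replicate 2. The targets can also be set against each other within a library, which no scaling of the library changes. The ratio of Nrarp to Dtx1 was 0.0809 and 0.13 in TRAIL+ libraries and 6.14 and 3.92 in CD49b+ libraries, and the ratio of Hes1 to Dtx1 was 0.0637 and 0.0202 in TRAIL+ libraries and 2.05 and 0.753 in CD49b+ libraries.

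**Figure D3:**
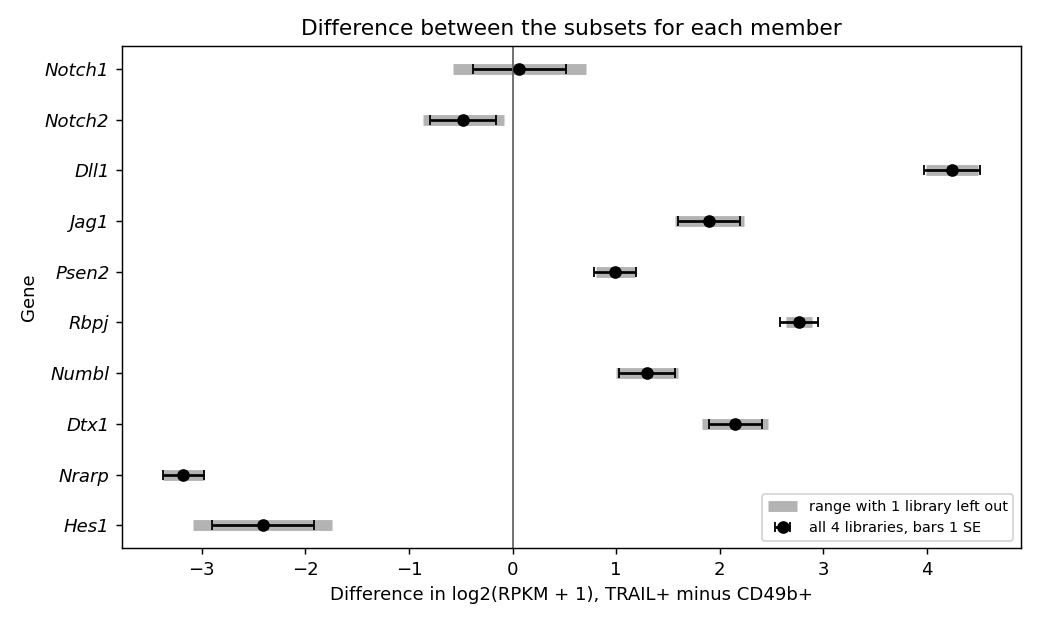
Difference in log2(RPKM + 1), TRAIL+ minus CD49b+, for each member, with points for all 4 libraries, bars of 1 moderated SE (limma) and grey bands for the range with any 1 library left out. Only the Notch1 band crosses 0, and the bands run from 3.99 to 4.49 for Dll1, 1.83 to 2.47 for Dtx1 and -3.37 to -2.98 for Nrarp.

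B cells are known to use Notch2 and Dtx1, and T cells share much of the pathway. Of 9 B-cell markers 4 were tested and 0 passed by limma (1 at an unadjusted p under 0.05, 0 by voom), and the list summed to 24.3 and 17.1 RPKM in TRAIL+ cells and 26.0 and 13.3 RPKM in CD49b+ cells, with 0 markers at 0 in all libraries. Of 9 T-cell markers 6 were tested, and 5 were higher and 1 lower in TRAIL+ cells by limma. These counts stand beside 4.76% and 3.86% of all genes tested. The list summed to 80.8 and 144 RPKM in TRAIL+ cells and 40.6 and 43.9 RPKM in CD49b+ cells. Cd3d, the most abundant T-cell marker, stood at 30.0 and 59.9 RPKM in TRAIL+ cells and 10.4 and 10.1 RPKM in CD49b+ cells, and Cd3e, next to it, at 21.3 and 43.2 RPKM in TRAIL+ cells and 2.62 and 3.87 RPKM in CD49b+ cells. Cd8a stood at 10.6 and 17.9 RPKM in TRAIL+ cells and 0.226 and 0 RPKM in CD49b+ cells, and Cd4 and Trat1 also rose (limma adjusted p = 0.00248, 0.019 and 0.0309 for the 3). Cd8a and Cd4 met the minimum through the TRAIL+ libraries alone. The marker that fell was Cd28, at 7.50 and 10.2 RPKM in TRAIL+ cells and 22.9 and 29.0 RPKM in CD49b+ cells. Cd5, Cd6 and Cd8b1, further T-cell markers named, like these 4, after their values were seen, were below the minimum. Cd5 and Cd6 reached at most 0.59 and 0.725 RPKM in any library. Cd8b1 did not follow Cd8a, at 0 and 0.186 RPKM in TRAIL+ cells and 1.16 and 0.179 RPKM in CD49b+ cells.

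Hepatocyte markers summed to 100.5 and 100.8 RPKM in TRAIL+ cells and 39.1 and 23.2 RPKM in CD49b+ cells, and 1 of 8 was higher by limma. That 1 was Trf, at 83.1 and 96.9 RPKM in TRAIL+ cells and 21.2 and 22.1 RPKM in CD49b+ cells, whereas Alb stood at 12.7 and 1.93 RPKM in TRAIL+ cells and 14.8 and 0.865 RPKM in CD49b+ cells. Of 7 dendritic cell markers 1, Xcr1, was higher in TRAIL+ cells, and the list summed to 162 and 59.3 RPKM in TRAIL+ cells and 122 and 38.7 RPKM in CD49b+ cells, mostly Cd74 and H2-Ab1. Xcr1 met the minimum through the TRAIL+ libraries alone. Markers of Kupffer cells and monocytes summed to 101 and 23.9 RPKM in TRAIL+ cells and 133 and 10.1 RPKM in CD49b+ cells, led by Lyz2, with Marco at 0. Of its 10 markers 6 were tested and 0 passed by limma (1 at an unadjusted p under 0.05, 0 by voom). The part of other cells in the members' differences was not tested.

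The rest of the pathway was taken from a list of 82 other Notch genes. All 82 had a row, 23 were below the minimum and 59 were tested. Of these, 5 rose and 3 fell in TRAIL+ cells and 51 did not pass (limma on log2(RPKM + 1), adjusted p threshold 0.05), that is 8.47% higher and 5.08% lower, against 4.76% and 3.86% of all genes tested (8.62% in either direction). Their median difference was 0.013, near the 0.00499 of all genes. The changed genes were genes listed with the corepressors, 1 Deltex relative and induced targets. Of 25 tested genes of receptor glycosylation, endocytosis, cleavage or the coactivator complex, 0 passed. By limma 1 of these 25 had an unadjusted p under 0.05, and voom on the recovered reads called 0. That 0 did not hold under every alternative: among the genes named here, Lfng and Ep300 each passed with 1 TRAIL+ library left out. Genes that are not named were not followed singly, so others of the 25 may have passed too. A fit with 1 library left out has a group of 1, whose spread is assumed to be that of the other group.

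Genes that act on the receptor or its ligands before and during cleavage did not pass the test. Lfng, a Fringe enzyme that adds sugars to Notch, was the most abundant of its group at 155 and 258 RPKM in TRAIL+ cells and 265 and 359 RPKM in CD49b+ cells. The groups were narrowly apart, and the difference of -0.62 ± 0.30 did not pass the test (limma adjusted p = 0.361; 0.0379 without TRAIL+ replicate 2). Mfng, another Fringe enzyme, differed by 0.16 ± 0.16. The ubiquitin ligase gene Neurl3 (0.19 ± 0.23) and the epsin gene Epn1 (-0.12 ± 0.16) led the group of ligand and receptor endocytosis. Adam10 (0.17 ± 0.17), which encodes the protease of the outer cut, did not pass either.

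Around RBPJ, the 7 coactivator genes tested did not pass and the genes listed with the corepressors divided. Other Mastermind genes were among those tested, but the Mastermind gene Maml3 was below the minimum. Maml3, named after its values were seen, had 2 and 0 reads in TRAIL+ libraries against 33 and 10 reads in CD49b+ libraries. Snw1, an RBPJ-binding cofactor, differed by 0.04 ± 0.16 and the acetyltransferase gene Ep300 by -0.78 ± 0.59. The Ep300 value turned on the TRAIL+ library used: it was -1.62 without replicate 1 (limma adjusted p = 0.0194) and 0.06 without replicate 2 (0.939). Of 15 tested genes listed with the corepressors, 2 rose and 1 fell (13.3% and 6.67%, beside 4.76% and 3.86% of all genes tested). Tle5, a short Groucho-family protein, stood at 673 and 740 RPKM in TRAIL+ cells and 327 and 343 RPKM in CD49b+ cells, a rise of 1.07 ± 0.19 (limma adjusted p = 0.0259). Without CD49b+ replicate 1 or 2 the difference was 1.04 and 1.11 and the call was lost (adjusted p = 0.524 and 0.416), as it was with no minimum (0.0505). Tle2, a Groucho corepressor, rose by 1.26 ± 0.26 on 25 and 17 reads in TRAIL+ libraries against 4 and 1 reads in CD49b+ libraries (limma adjusted p = 0.044). Tle2 met the minimum through the TRAIL+ libraries alone, at 2.22 and 1.62 RPKM there against 0.341 and 0.0918 RPKM in CD49b+ libraries. Its call was lost without TRAIL+ replicate 1 (0.0536), CD49b+ replicate 1 (0.0923) or CD49b+ replicate 2 (0.173), and with a pseudocount of 0.1 (0.066). Its 8.86-fold ratio was 20.9 without CD49b+ replicate 1 and 5.62 without CD49b+ replicate 2.

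Ctbp2, a corepressor of the CtBP family, fell to 0.513 and 0.221 RPKM in TRAIL+ cells, against 2.96 and 3.45 RPKM in CD49b+ cells (-1.63 ± 0.25, limma adjusted p = 0.0155). Ctbp2 met the minimum through the CD49b+ libraries alone. It was 8.74-fold lower by group means, and 14.5-fold without TRAIL+ replicate 1. Its relative Ctbp1 was more abundant, at 142 and 139 RPKM in TRAIL+ cells and 149 and 151 RPKM in CD49b+ cells, and did not pass (-0.09 ± 0.15). Tle3, also a Groucho corepressor, was lower in both TRAIL+ libraries (-0.90 ± 0.29) and missed the threshold (limma adjusted p = 0.152; 0.00668 without TRAIL+ replicate 1 and 0.0336 after the length correction).

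Among 11 tested inhibitor and turnover genes, Dtx3 rose (9.09%, beside 4.76% of all genes tested). It stood at 15.6 and 14.9 RPKM in TRAIL+ cells and 8.36 and 7.56 RPKM in CD49b+ cells (0.86 ± 0.18, limma adjusted p = 0.0458), a call near the threshold. The difference was 0.89 when TRAIL+ replicate 2 was left out, and 0.93 or 0.80 when CD49b+ replicate 1 or 2 was, and the call was lost in each (adjusted p = 0.0507, 0.346 and 0.46), with no minimum (0.0743) and with voom (0.0581). The ubiquitin ligase genes Nedd4 (0.67 ± 0.18, limma adjusted p = 0.0974; 0.0257 without TRAIL+ replicate 2 and 0.0159 after the length correction) and Itch (0.27 ± 0.17, 0.497) did not pass.

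Of 15 other target genes, 8 were tested, 2 rose and 2 fell (25% and 25%, beside 4.76% and 3.86% of all genes tested). Classical targets of the Hes and Hey families were scarce: Hes5 was at 0 in all libraries, Hey1 had 2 and 2 reads in TRAIL+ libraries against 5 and 4 in CD49b+ libraries, and Heyl 7 and 5 reads against 14 and 10. These family members were below the minimum and named after their values were seen. Hes6, a Hes relative, stood at 32.8 and 40.4 RPKM in TRAIL+ cells and 47.3 and 52.2 RPKM in CD49b+ cells and did not pass (-0.44 ± 0.18, limma adjusted p = 0.26; 0.0462 after the length correction), and neither did Myc (-0.11 ± 0.30).

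Bcl11b and Tcf7, both transcription factors of early T-cell development, went opposite ways. Bcl11b rose to 13.1 and 7.43 RPKM in TRAIL+ cells, against 0.894 and 1.44 RPKM in CD49b+ cells (2.34 ± 0.32, limma adjusted p = 0.0113), and Tcf7 fell to 39.8 and 40.3 RPKM in TRAIL+ cells, against 143 and 139 RPKM in CD49b+ cells (-1.79 ± 0.15, 0.00248). Both stayed past the threshold without any 1 library. Il2ra, the IL-2 receptor alpha chain, rose on 102 and 91 reads in TRAIL+ libraries against 32 and 21 reads in CD49b+ libraries, (limma adjusted p = 0.0183), a call lost when CD49b+ replicate 1 (0.0684) or 2 (0.139) was left out. Cdkn1a, the cell-cycle inhibitor p21, fell to 4.11 and 1.82 RPKM in TRAIL+ cells, against 13.6 and 10.9 RPKM in CD49b+ cells (limma adjusted p = 0.031; 0.121 and 0.0618 without CD49b+ replicates 1 and 2, and 0.0733 with no minimum). Its 4.13-fold ratio was 6.73-fold without TRAIL+ replicate 1.

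**Figure D4:**
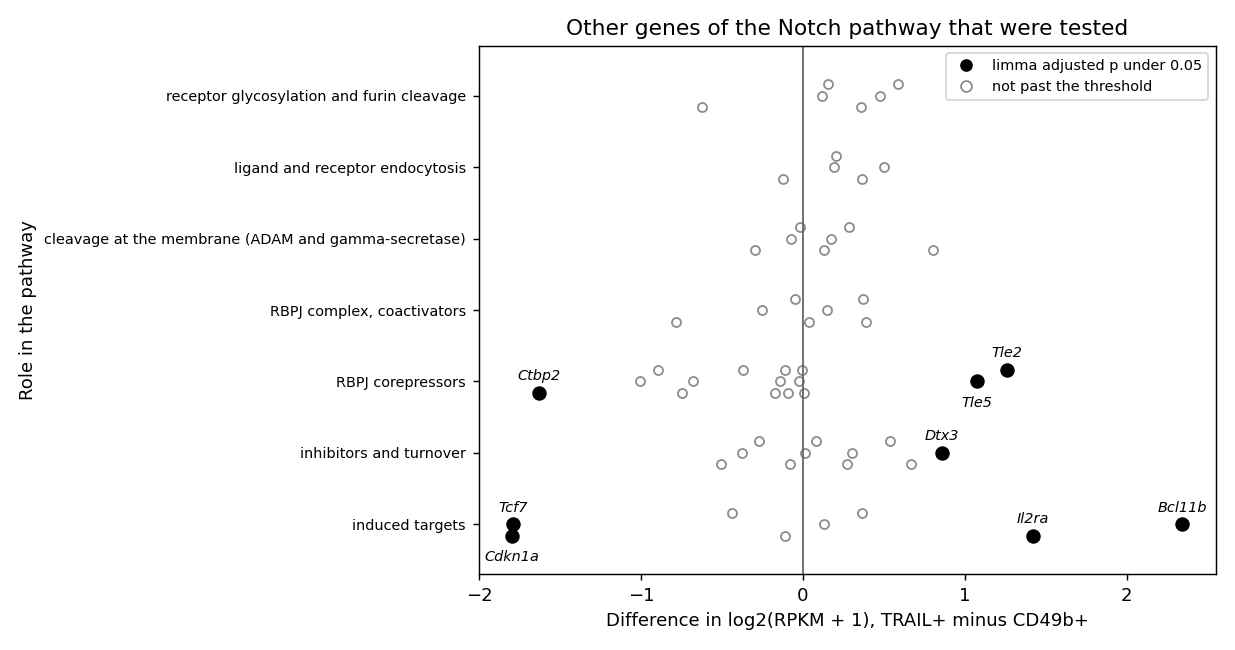
Difference in log2(RPKM + 1), TRAIL+ minus CD49b+, for the 59 other Notch pathway genes tested, in rows by role, with filled points for a limma adjusted p under 0.05. The 5 filled points right of 0 and the 3 left of it all lie in the rows of corepressors, inhibitors and targets, and the rows above them hold open points alone.

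The genes nearest in pattern to Dll1 and Nrarp were found by the root mean square distance of log2(RPKM + 1), centred on each gene's mean, over the 4 libraries. For Dll1 these were 2900026A02Rik (0.17), Septin8 (0.176) and Epcam (0.191). Epcam stood at 17.2 and 18.1 RPKM in TRAIL+ cells and 0 and 0.123 RPKM in CD49b+ cells. For Nrarp they were Macir (0.0645), P2ry14 (0.0838) and Scimp (0.0963), and Macir stood at 6.36 and 8.19 RPKM in TRAIL+ cells and 79.5 and 79.5 RPKM in CD49b+ cells. This nearness is a description over 4 libraries, chosen by the same contrast as the members.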

How the data were processed

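PolyA RNA of sorted liver NK cells was measured in 2 TRAIL+ and 2 CD49b+ libraries, grouped by sample title. The deposited values are RPKM, per the file headers. Per the submitters' processing notes, the authors used TopHat 1.4.1 and the mouse build mm9. How reads were counted, on which annotation and with or without strand is not given in the sources used here. Overlapping genes, and a gene and its antisense partner, may therefore share reads. Rows were named through RefSeq (GRCm38.p6), 20661 of 21025 by accession, and promoter sequences are RefSeq's.

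Whole reads were worked out from the RPKM steps: for 13681 of 13681 rows above 0 a length gave whole reads in every library (relative tolerance 1e-09), and random scaling of the libraries left 0 of 500 drawn rows whole. The lengths lay within 10% of the annotated ones for 81.1% of 10859 comparable rows. Intervals on reads cover counting error only.

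The 10047 genes that reached 1 RPKM in 2 or more of the 4 libraries were tested on log2(RPKM + 1) with limma 3.58.1 (R 4.3.3; lmFit, eBayes with a trended prior, Benjamini-Hochberg over all genes, threshold 0.05). This scale understates the change of low genes. The fit was tested on simulated data. Ratios are of group means of RPKM. The members and lists were chosen with earlier results of these data known. Named were all members, the pathway genes past the threshold and the 2 most abundant others of each role, the 3 genes nearest in pattern to each of 2 members, and the 2 most abundant markers of other cell types. One gene that this rule names is not reported here. Alternatives changed the scaling, pseudocount, minimum, tool, replicate block, gene length and the libraries used.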

Additional observations from a re-analysis of the deposited data

How the results depend on the processing

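All 10 members kept their direction under every alternative run, except Notch1, which was near 0. The replicate block and the minimum leave a gene's difference as it is by construction. Member values that moved by more than 1 SD between replicates were those of Dll1, Jag1 and Rbpj with a pseudocount of 0.1 (6.16, 3.35 and 2.95 on the log2 scale) and with voom on the recovered reads (6.62, 3.65 and 2.96), larger because a pseudocount of 1 shrinks low values. Jag1 had no value with the minimum at 5 RPKM.

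The counts of genes called depended on the libraries used. Over all genes 478 were higher and 388 lower in TRAIL+ cells, and with 1 library left out 245 to 777 were higher and 198 to 763 lower. Leaving out TRAIL+ replicate 1 gave 777 and 763. Leaving out CD49b+ replicate 1 gave 245 and 198, and leaving out CD49b+ replicate 2 gave 256 and 211. After the length correction 588 were lower. Of the other Notch pathway genes, 5 higher and 3 lower, the counts with 1 library left out were 1 to 8 higher and 2 to 6 lower, with 8 higher without TRAIL+ replicate 2, 6 lower without TRAIL+ replicate 1 and 1 higher without either CD49b+ library. Without a minimum 3 were higher, and after the length correction 6 were lower. Of 262 values of single named pathway genes, 234 kept their side of the threshold, 17 lost it and 11 gained it. The causes were not tested.

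The replicate numbers share only a number in the labels. Deviations of same-numbered libraries from their group means correlated at 0.563 across 10047 genes, and with a replicate block 1049 genes were called higher and 833 lower, and 7 other Notch pathway genes higher and 7 lower. Of the pathway genes named here, Lfng, Ep300, Tle3 and Nedd4 did not pass without the block and passed with it (limma adjusted p = 0.0192, 0.038, 0.00272 and 0.00852). The counts with the block also include genes that are not named. At these depths genes with few reads, such as Dll1 and Jag1 in CD49b+ cells, have folds bounded only by wide counting intervals.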
